A study of Rattus norvegicus with 5 samples.

Results

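Rat vascular smooth muscle cells kept under hypoxia after In-Cl were set against the same cells kept under hypoxia after E2, gene by gene. The members are all genes with a mean linear value of at least 100 over the 5 libraries of the series, with 1 row per symbol and the ribosomal RNA rows left out: 8810 of the 16881 symbols in the 17048 rows of the tables. The rule uses only the mean level, and no difference between the 2 libraries enters it. The members nearest the limit were Zfp418 (mean 100.034, In-Cl minus E2 0.42 on the log2 scale) and Rgs17 (100.062, -0.38) just inside, and Acvr1b (99.9248, 0.30) and Cd80 (99.8966, 0.24) just outside.

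The In-Cl library came from cells pretreated with 0.1 µM In-Cl and then kept under hypoxia for 24 h, and the E2 library from cells pretreated with 10 nM E2 and then kept under hypoxia for 24 h. The doses differ 10-fold, so the values are given side by side, and a difference between the libraries cannot be assigned to the compound or to its dose. The other libraries are hypoxia for 24 h after 0.1 µM DPN, hypoxia for 24 h alone, and a control. The labels name no vehicle, oxygen level, animal, strain or length of pretreatment, and all cells were grown in DMEM/F12 on coated plastic. Each condition is 1 library, so the spread between cultures is unknown, nothing is tested, and each statement compares libraries and not conditions. RNA was taken from whole cultures, in which fewer cells of a type and less RNA per cell cannot be told apart.

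E2 is estradiol, the natural estrogen, and it binds both nuclear estrogen receptors, alpha (Esr1) and beta (Esr2), and the membrane receptor Gper1. In-Cl is the indazole compound of the series title, a synthetic ligand known to prefer the beta receptor, and DPN is another ligand that prefers it. A receptor that has bound its ligand binds DNA at estrogen response elements or joins other factors there, and coactivators and corepressors set what happens to the gene. Smooth muscle cells of the vessel wall carry a contractile apparatus of actin, myosin and regulatory proteins, many of whose genes are driven by serum response factor through CArG boxes. The title names the question, the effect of the indazole on cyclooxygenase-2 (Ptgs2) under hypoxia.

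The tables hold log2 values, and a linear value (2 to the power of the value, minus 1) looks like a read count adjusted to a common library size; it is called adjusted reads here. These sum to 21763657 with In-Cl and 22090980 with E2, and to between 20663687 and 22837695 in the other 3. Low values come in equal steps, which gives about 22050311 reads with In-Cl and 20304210 with E2. All differences are In-Cl minus E2 on the deposited log2 scale, and their 95% intervals come from these approximate reads and cover counting error only. Ribosomal RNA rows held 3.65% of the adjusted reads with In-Cl, 3.44% with E2 and 3.92% to 4.67% in the other 3. Acta2 and Tagln, markers of the labelled cell type, were abundant. Acta2, smooth muscle actin, had 108399 adjusted reads with In-Cl and 143132 with E2. Tagln (transgelin, an actin-binding protein of smooth muscle) had 71814 with In-Cl and 89835 with E2. Not all such markers were abundant, and Myh11, the smooth muscle myosin heavy chain, was far lower (values below). The markers Cdh5 and Kdr of endothelium, Itgam and Cd3e of leukocytes and Adipoq of adipocytes had 0 reads in all 5 libraries. Other markers on the same lists were read, so these zeros do not show that such cells were absent. Flt1 had 71 approximate reads with In-Cl and 88 with E2, and Pecam1 had 6 and 4. Csf1r had 32 and 24, Cd68 17 and 12, Ptprc 9 and 6, and the adipocyte marker Fabp4 4 and 1. Of 7 endothelial markers 1 was a member (Tek, 442 approximate reads with In-Cl and 344 with E2), and the list summed to 514 adjusted reads with In-Cl and 479 with E2. Of 7 leukocyte markers 1 was a member (Cd14, 215 reads with In-Cl and 157 with E2), with sums of 269 adjusted reads with In-Cl and 217 with E2. Of 7 fibroblast markers 3 were members, and the list summed to 285721 with In-Cl and 263920 with E2, nearly all from Col1a1 (284880 and 263053). The pericyte list summed to 887 and 886, the epithelial to 497 and 482, and the neural crest or glia list to 192 and 116, with 1 member each. The part of other cells in any result was not tested.

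The start regions of 4 genes named below are printed. Cnn1 and Acta2 are contractile genes, and Rbm3 is the lowest ranked gene with a mean of at least 1000. Egr1 was the highest of the early factors (0.86) and does not stand for them. Their median was 0.03, with 9 of 16 members above 0 and 7 below. Each is the RefSeq promoter window of build GRCr8, from 250 bases before to 50 bases after the gene's start, written 5′ to 3′ on the gene's strand. Capitals mark CArG boxes in Egr1 and the letters TATAAA in Rbm3. Egr1 lies at chr18:26736828-26737127, plus strand, Cnn1 at chr8:28908187-28908486, plus strand, Acta2 at chr1:241172454-241172753, minus strand, and Rbm3 at chrX:17020655-17020954, plus strand.
Egr1: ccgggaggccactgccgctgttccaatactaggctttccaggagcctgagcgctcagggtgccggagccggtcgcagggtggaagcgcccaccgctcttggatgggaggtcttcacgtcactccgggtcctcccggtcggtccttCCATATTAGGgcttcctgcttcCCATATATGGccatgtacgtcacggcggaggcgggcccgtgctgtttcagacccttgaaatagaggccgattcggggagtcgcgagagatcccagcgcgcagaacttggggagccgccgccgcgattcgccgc
Cnn1: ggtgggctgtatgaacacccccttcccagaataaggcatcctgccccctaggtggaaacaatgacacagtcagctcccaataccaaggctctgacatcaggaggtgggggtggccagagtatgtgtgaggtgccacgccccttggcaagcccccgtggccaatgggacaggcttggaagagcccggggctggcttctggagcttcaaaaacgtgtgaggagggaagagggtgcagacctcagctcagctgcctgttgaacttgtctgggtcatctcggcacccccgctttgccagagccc
Acta2: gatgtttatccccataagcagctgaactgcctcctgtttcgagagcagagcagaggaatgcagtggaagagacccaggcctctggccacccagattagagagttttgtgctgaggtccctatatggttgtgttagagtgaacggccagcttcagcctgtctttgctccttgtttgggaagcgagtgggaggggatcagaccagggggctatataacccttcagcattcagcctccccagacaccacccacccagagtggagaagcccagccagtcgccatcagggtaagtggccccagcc
Rbm3: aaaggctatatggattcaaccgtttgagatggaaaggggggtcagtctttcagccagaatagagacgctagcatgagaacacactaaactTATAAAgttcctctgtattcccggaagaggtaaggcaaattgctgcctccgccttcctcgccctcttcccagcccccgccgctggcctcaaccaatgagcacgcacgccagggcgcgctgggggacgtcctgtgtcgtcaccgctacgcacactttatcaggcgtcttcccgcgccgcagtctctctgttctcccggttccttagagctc

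The table held a promoter for 6834 of the 8810 members (77.6%). The CArG box was searched only in its strict form CCWWWWWWGG, where W is A or T, and near matches were not counted. Read on both strands, it was in 86 of these 6834 (1.26%) and in 548 of all 33469 promoters (1.64%). Among genes at least 1.5-fold higher with In-Cl it was in 3 of 47 with a promoter (Egr1, with 2 boxes, Myh4 and Xpnpep3), and among those at least 1.5-fold lower in 1 of 25 (Il1rl2). Of the contractile genes below, 1 of 17 held a box of this strict form in the window (Srf), and the Cnn1 and Acta2 windows held none. The Acta2 window does hold ccctatatgg and ccttgtttgg, each of which departs from the strict form by 1 letter, so these counts do not show that CArG-like boxes are absent. The full estrogen response element, GGTCA and TGACC with any 3 bases between them, was in 9 of 33469 promoters (0.0269%) and in 0 of the 6834. The receptor's core motif AGGTCA, which can overlap a full element, was in 11.0% of the 6834, in 2 of 47 and in 4 of 25. TATAAA was in 5.97% of the 6834, in 3 of 47 and in 1 of 25, and GGGCGG in 66.1% of the 6834, in 27 of 47 and in 18 of 25. A match is a description of letters and no match says nothing of the factor.

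Most genes differed by less than 1.5-fold between the 2 libraries, and how far replicate libraries would lie apart is unknown. The median difference over the 8810 genes was -0.005, and 5% of genes lay below -0.29 and 5% above 0.35. At least 1.5-fold higher with In-Cl were 63 genes (0.715%) and at least 1.5-fold lower 36 (0.409%), and at a 2-fold limit 4 were higher (0.0454%) and 2 lower (0.0227%). The counting intervals of all 99 (1.12%) leave out 0. These genes were chosen by fold and level from the same reads, which makes such intervals likely, so nothing is read from this. Over all 8810 genes the interval was above 0 in 18.7% and below 0 in 20.9%. When the median difference of genes of like level was taken off, an alternative chosen after seeing the data, 52 were higher and 48 lower. The median difference was 0.05 in the lowest sixth of genes by level (means of 100.03 to 233) and -0.05 in the highest sixth (means from 2220), and 38 of the 63 and 22 of the 36 were in the lowest sixth.

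**Figure D1:**
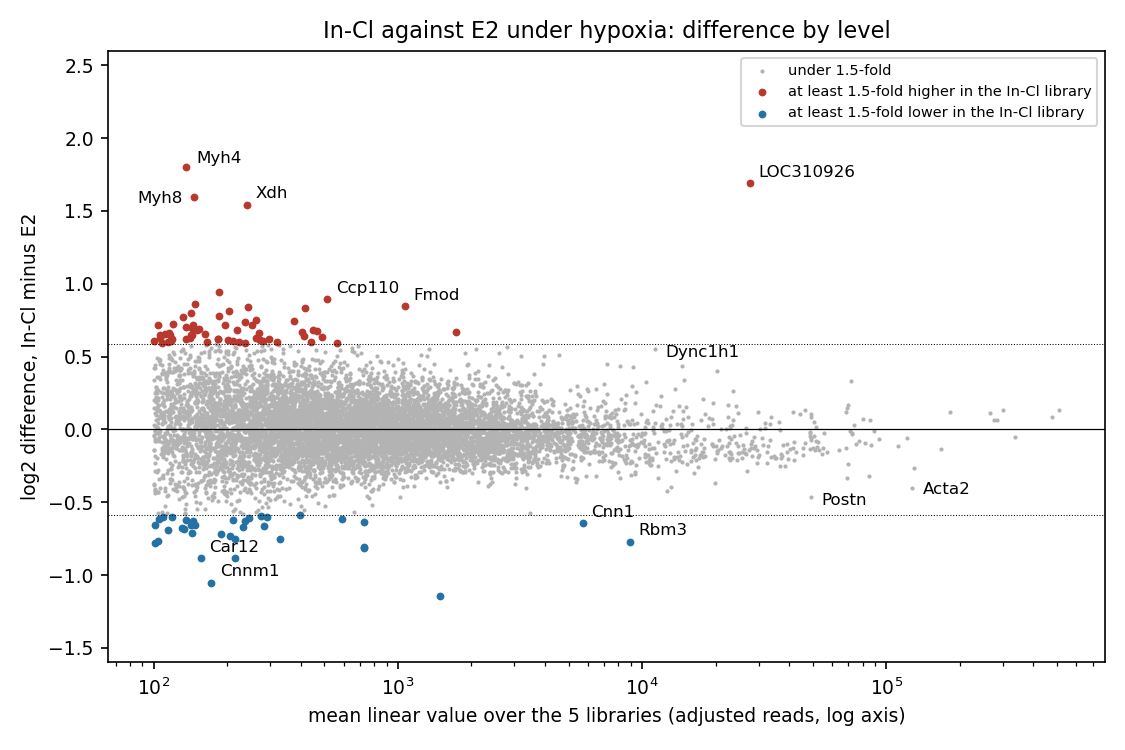
Each point is 1 of the 8810 genes. The horizontal axis is the mean linear value over the 5 libraries (adjusted reads, log scale) and the vertical axis is the log2 difference, In-Cl minus E2; coloured points are the 63 genes at least 1.5-fold higher and the 36 at least 1.5-fold lower, most of them at low level.

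The contractile genes were mostly lower with In-Cl than with E2. Of 26 genes on the list of the contractile apparatus and actin cytoskeleton 23 were members, and 17 lay below 0 and 6 above, against 50.9% below and 48.8% above over all 8810 genes. Their median was -0.22, against -0.005 over all genes. The counting interval was below 0 in 14 (over all genes 20.9%) and above 0 in 4 (18.7%), and In-Cl was the lowest of the 5 libraries in 13 of 23 (26.2% over all genes). These genes are abundant, with a median level of 5711 adjusted reads, and intervals narrow with more reads. The interval counts are therefore not like for like with the shares over all genes. With the median of genes of like level taken off, the list's median was -0.18, with 17 below 0 and 6 above.

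Cnn1, calponin, which binds actin and restrains myosin in differentiated smooth muscle, had 4201 adjusted reads with In-Cl and 6570 with E2, and 4857 with DPN, 6229 in hypoxia and 6699 in the control. The In-Cl library was the lowest of the 5, and the difference was -0.64 (-0.70 to -0.59), 1.56-fold lower. Acta2, the smooth muscle actin, had 108399 with In-Cl and 143132 with E2, against 115616 with DPN, 152451 in hypoxia and 119362 in the control, a difference of -0.40 (-0.41 to -0.39). In-Cl was again the lowest, with DPN next to it, while the E2 and hypoxia libraries were the highest pair. Myl9, a light chain of smooth muscle myosin, had 10831 with In-Cl and 14501 with E2, against 11909.9 with DPN, 14961 in hypoxia and 10861 in the control (-0.42). Here In-Cl and the control were nearly level and E2 and hypoxia stood above the other 3. Tpm2, a tropomyosin that lies along the actin filament, had 59104 with In-Cl and 74398 with E2, against 65127 with DPN, 80907 in hypoxia and 67284 in the control (-0.33). Tagln differed by -0.32 and Tpm1, another tropomyosin, by -0.24. For Tpm2 too the In-Cl library was the lowest of the 5. Acta1, skeletal actin, which is no list member, had 2770 with In-Cl and 3652 with E2 (-0.40), and as its coding sequence is close to that of Acta2 and of Actg2, enteric actin (-0.55, -0.88 to -0.22), shared reads make these uncertain.

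The highest members of the list were Pln, phospholamban, the brake on the calcium pump (87.7 adjusted reads with In-Cl, 73.2 with E2, 350.4 in the control; 0.26, -0.20 to 0.75), and Myocd, myocardin, the coactivator of serum response factor (326 with In-Cl and 274 with E2; 0.25, 0.01 to 0.49). Mylk, the kinase that starts contraction by phosphorylating the light chain, was next (712 with In-Cl and 608 with E2; 0.23, 0.07 to 0.39). So the regulators Myocd and Mylk lay on the other side of 0 from actin, calponin and the tropomyosins. Myh11, the smooth muscle myosin heavy chain, had 283 with In-Cl and 305 with E2, with an interval that spans 0 (-0.35 to 0.13). Srf, serum response factor itself, differed by -0.17 (-0.28 to -0.05).

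**Figure D2:**
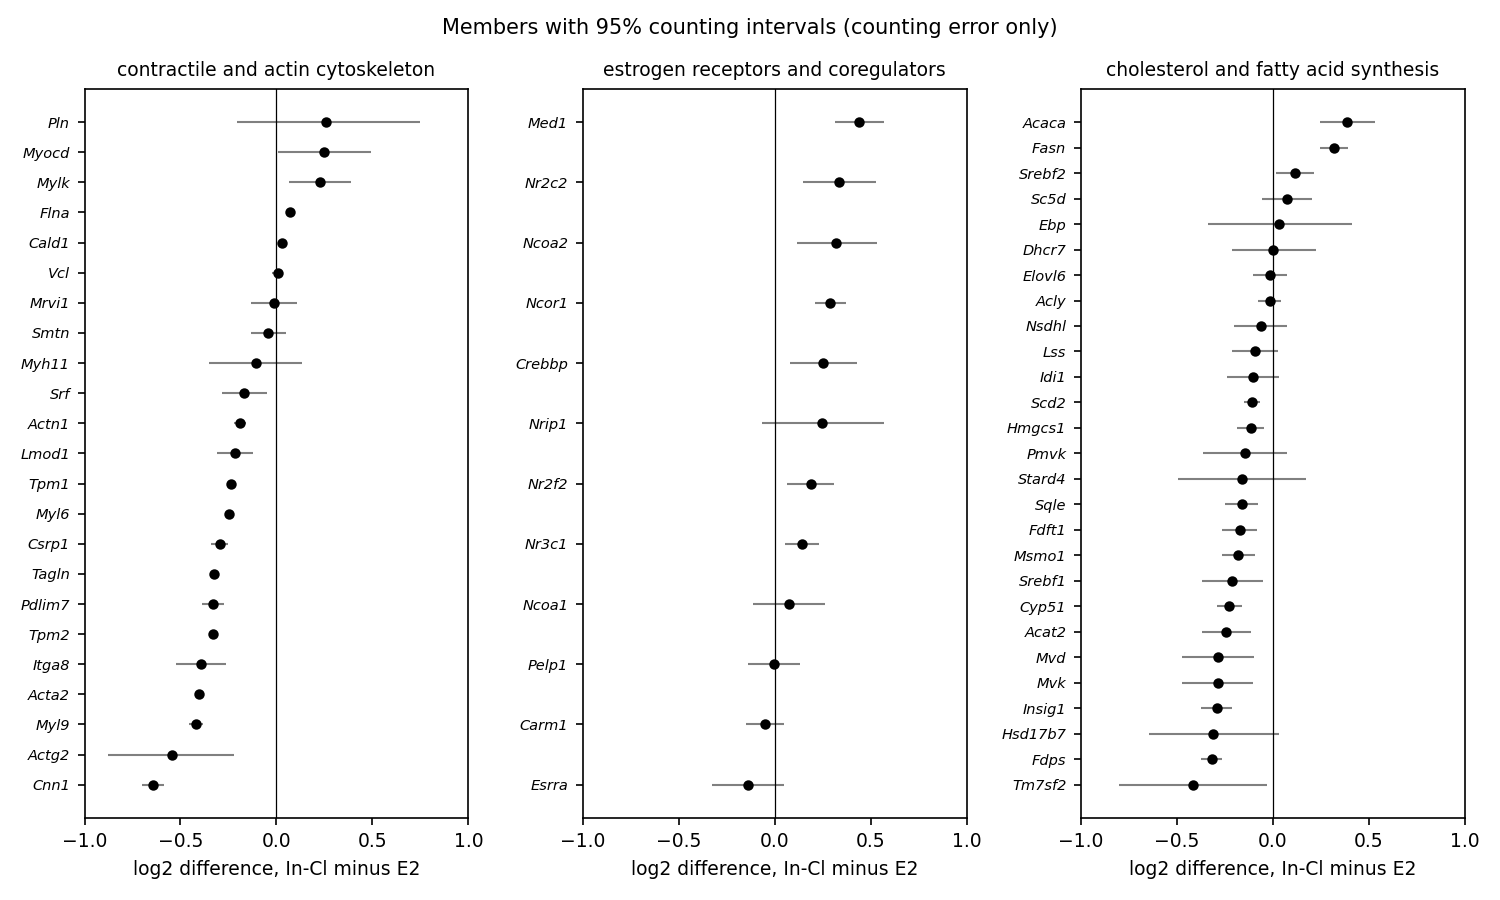
Members of 3 gene lists. Each dot is the log2 difference of 1 gene, In-Cl minus E2, and the bar its 95% counting interval, which covers counting error only; 17 of 23 contractile genes lie left of 0, most sterol genes lie left of it, and most receptor and coregulator genes lie right of it. Members that are not reported here are not drawn.

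Ptgs2, cyclooxygenase-2, which makes the precursor of all prostanoids, had 218 adjusted reads with In-Cl and 306 with E2, against 222 with DPN, 258 in hypoxia and 111 in the control. The E2 library was the highest of the 5, In-Cl and DPN lay close together below hypoxia alone, and the control was the lowest. The difference was -0.49 (-0.75 to -0.23) on 221 approximate reads with In-Cl and 281 with E2, short of 1.5-fold. Ptgs1, the constitutive cyclooxygenase, was under the level limit, with 48 reads with In-Cl and 38 with E2, and 27, 18 and 23 in the DPN, hypoxia and control libraries; its interval spans 0 (-0.45 to 0.85).

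Of the 23 genes on the prostanoid list 12 were members, with a median of -0.08, 7 below 0 and 5 above (over all genes 50.9% and 48.8%). Ptges2, a membrane-associated prostaglandin E synthase, had 214 adjusted reads with In-Cl and 302 with E2 (-0.49, -0.76 to -0.24). Ptgis, prostacyclin synthase, had 1616 with In-Cl and 1833 with E2 (-0.18). On the other side, Ptges, the inducible prostaglandin E synthase, had 171 with In-Cl and 139.6 with E2, and its interval spans 0 (0.29, -0.04 to 0.64). Ptger1, the EP1 receptor of prostaglandin E2, had 278 with In-Cl and 184 with E2, against 222 with DPN, 253 in hypoxia and 241 in the control (0.59, 0.32 to 0.88). For Ptger1 the In-Cl library was the highest of the 5 and E2 the lowest.

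The receptors of the compounds were hardly read. Esr1 had 16 reads with In-Cl and 12 with E2, and 3, 9 and 4 with DPN, in hypoxia and in the control. Esr2 had 15 with In-Cl and 6 with E2, and 22, 14 and 4 with DPN, in hypoxia and in the control. Gper1 had 3 reads with In-Cl and 3 with E2. All 3 intervals span 0 (for Esr2 -0.27 to 2.83), so no difference in receptor RNA was detectable at this depth. Pgr, the progesterone receptor and a classical estrogen target, had 19 reads with In-Cl and 23 with E2, and its interval spans 0 (-1.37 to 0.52).

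The coregulators that nuclear receptors recruit were mostly higher with In-Cl. Of 22 genes on the list of receptors and coregulators 13 were members, and 10 lay above 0 and 3 below. Over all genes 48.8% lay above 0 and 50.9% below. The median was 0.25, against -0.005 over all genes, and its 95% interval over the members spans 0 (-0.003 to 0.322). The counting interval was above 0 in 8 members (18.7% over all genes) and below 0 in 0 (20.9%). In-Cl was the highest of the 5 libraries in 8 of 13 (23.1% over all genes). Med1, the Mediator subunit that nuclear receptors contact, had 1239 adjusted reads with In-Cl and 912 with E2, against 955 with DPN, 773 in hypoxia and 903 in the control (0.44, 0.31 to 0.57). Ncor1, a corepressor that brings histone deacetylase, had 2754 with In-Cl and 2253 with E2, against 2188, 2026 and 1970 in the DPN, hypoxia and control libraries (0.29, 0.21 to 0.37). In both the In-Cl library stood above the other 4. The orphan receptor Nr2c2 differed by 0.34, the coactivator Ncoa2 by 0.32 and the acetyltransferase Crebbp by 0.25. At the low end were Esrra, an estrogen-related receptor that does not bind estradiol (-0.14), and Carm1, an arginine methyltransferase coactivator (-0.05), and both intervals span 0.

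Genes known as estrogen targets in other cells lay around 0: 16 of 28 were members, 9 above and 7 below, with a median of 0.02. The interval was above 0 in 3 (18.7% over all genes) and below 0 in 1 (20.9%), so the share above 0 was that of all genes. The highest was Cxcl12, the chemokine that calls CXCR4-bearing cells, with 11166 adjusted reads with In-Cl and 8299.6 with E2, against 10469 with DPN, 8011 in hypoxia and 7857 in the control (0.43, 0.39 to 0.47). In-Cl and DPN stood above the other 3 libraries. Trim25, an E3 ligase induced by estrogen in breast cells, came next (0.23), and Sod2, the mitochondrial superoxide dismutase (-0.18), and Xbp1, a factor of the unfolded protein response (-0.09), were the lowest.

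The genes at least 2-fold apart were few. Myh4, a fast skeletal myosin heavy chain, had 212 adjusted reads with In-Cl and 60.1 with E2, against 51.4 with DPN, 169 in hypoxia and 186 in the control (1.80, 1.39 to 2.28; 3.49-fold). Myh8, the perinatal heavy chain, had 239.9 with In-Cl and 78.7 with E2, against 51.4 with DPN, 176 in hypoxia and 183 in the control (1.59, 1.23 to 2.01). In both, E2 and DPN formed the low pair and the In-Cl, hypoxia and control libraries the high 3. These stand in a run of similar genes in which reads can be shared, so the values per gene are uncertain: the neighbours Myh3 (0.52), Myh2 (-0.10) and Myh1 (-0.13) differed by less, and Myh1 had 1429 with In-Cl and 1568 with E2. With quantile normalization the differences were 3.79 for Myh4 and 2.03 for Myh8.

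Xdh, xanthine dehydrogenase, which makes uric acid and can yield superoxide, had 439 adjusted reads with In-Cl and 150.1 with E2, against 253 with DPN, 247 in hypoxia and 114 in the control (1.54, 1.27 to 1.83; 2.91-fold). In-Cl was the highest of the 5, and the E2 library lay between hypoxia and control. Srd5a2, a steroid 5-alpha reductase that turns testosterone into dihydrotestosterone, is the next gene in the tables and was chosen after its values were seen; it had 37 reads with In-Cl and 2 with E2, and 0, 6 and 0 with DPN, in hypoxia and in the control. Ehd3, on the other side of Xdh, differed by 0.05. Cnnm1 of the cyclin M family had 35.4 adjusted reads with In-Cl and 74.4 with E2, against 279 with DPN, 249.6 in hypoxia and 223 in the control (-1.05, -1.68 to -0.45). Both libraries were far below the other 3. Nkx2-3, a homeobox gene beyond Got1 in that run and likewise chosen after its values were seen, had 6 reads with In-Cl and 13 with E2, against 48, 44 and 48 with DPN, in hypoxia and in the control, while Got1 between them differed by -0.18.

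The other members at least 2-fold apart are unnamed loci. The kept row of LOC310926 had 27919 adjusted reads with In-Cl and 8652 with E2, against 31982 with DPN, 36357 in hypoxia and 34064 in the control (1.69), so E2 stood apart from the other 4. Another row of LOC310926, with a lower mean, went the other way, with 6969 with In-Cl and 8118 with E2 (-0.22). The kept row stands beside ribosomal RNA rows, and the Rn5-8s row there, which is no member, had 10513 with In-Cl and 307 with E2, against 11425, 13691 and 12836 with DPN, in hypoxia and in the control. The remaining Rn5-8s rows, which had far fewer reads, differed by -0.31, -0.29 and -0.28. The part of ribosomal RNA in LOC310926 was not tested. LOC102723236 had 800.2 with In-Cl and 1767 with E2, against 1838 with DPN, 1018 in hypoxia and 2037 in the control (-1.14). Both were chosen after their values were seen.

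**Figure D3:**
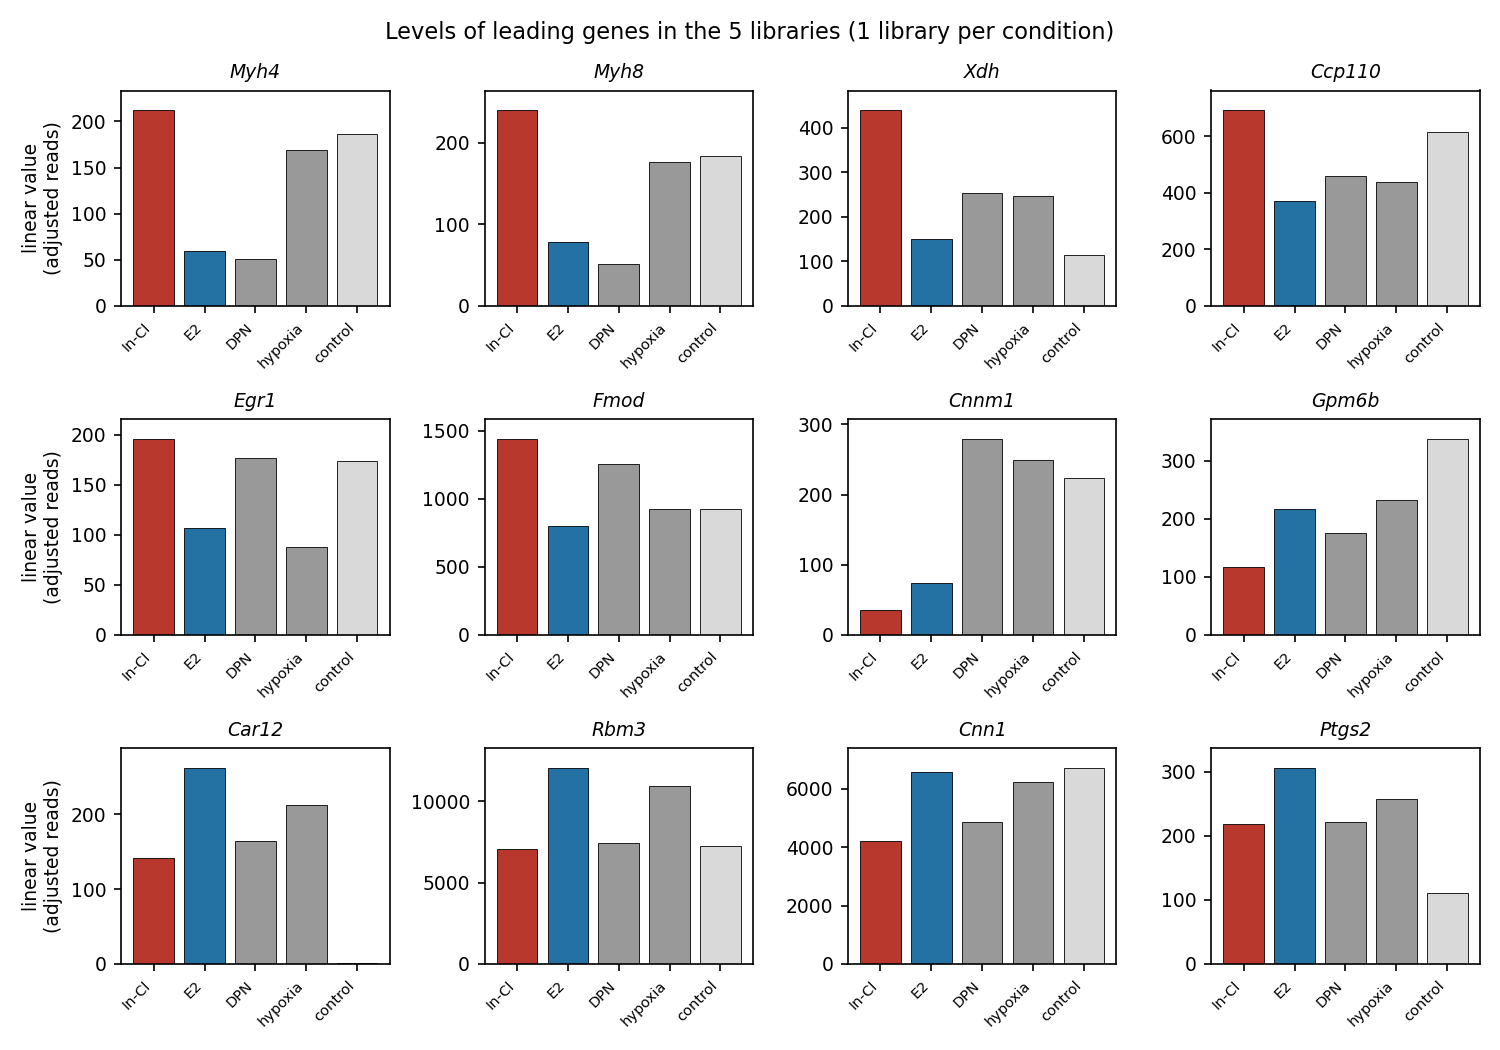
Adjusted reads (linear values) of the leading genes in the 5 libraries, with In-Cl left of E2. Each bar is 1 library, so there are no error bars; Myh4 is at 212 with In-Cl and 60.1 with E2, and Rbm3 at 7057 with In-Cl and 12034 with E2.

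Between 1.5-fold and 2-fold, the genes higher with In-Cl included Egr1, the matrix genes Fmod and Fras1, and Ccp110. Egr1, a zinc finger factor of the first response to serum and injury, had 195 adjusted reads with In-Cl and 107 with E2, against 177 with DPN, 87.9 in hypoxia and 174 in the control (0.86, 0.52 to 1.24). E2 and hypoxia were the low pair and the other 3 were high. Fmod, fibromodulin, which binds collagen fibrils, had 1438 with In-Cl and 798.5 with E2, against 1259 with DPN, 925 in hypoxia and 926 in the control (0.85, 0.72 to 0.98). Fras1, a basement membrane protein, had 619.8 with In-Cl and 369 with E2, against 398 with DPN, 321 in hypoxia and 167 in the control (0.74). For both matrix genes In-Cl was the highest of the 5. Ccp110, which caps centrioles, had 692 with In-Cl and 371 with E2, against 459, 437 and 615 with DPN, in hypoxia and in the control (0.90, 0.71 to 1.09). E2 was the lowest of the 5 for Ccp110.

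Further genes in this range were Slc26a1, a sulfate transporter (0.94), Hus1 of the DNA damage clamp (0.84), Sema6c, a semaphorin (0.80), Afmid of kynurenine formation (0.78) and Gatsl2 (0.75). Among genes with a mean of at least 1000, Dync1h1, the heavy chain of cytoplasmic dynein, had 14441 adjusted reads with In-Cl and 9850 with E2, against 9627 with DPN, 12085 in hypoxia and 10268 in the control (0.55). In-Cl was the highest of the 5 for Dync1h1. Ogt, which adds N-acetylglucosamine to proteins (0.56), Golgb1, the Golgi tether giantin (0.55), Rsrp1 (0.55), Arid4b (0.52), Pnn of the spliceosome (0.52), the ubiquitin ligase Mycbp2 (0.51) and Prrc2c (0.50) were also higher with In-Cl.

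On the lower side, Rbm3, a cold-induced RNA-binding protein, had the lowest difference of the ranked genes with a mean of at least 1000. It had 7057 adjusted reads with In-Cl and 12034 with E2, against 7403 with DPN, 10921 in hypoxia and 7245 in the control (-0.77, -0.81 to -0.73; 1.71-fold lower). In-Cl, DPN and the control were close and the E2 and hypoxia libraries were high. Car12, a carbonic anhydrase of the cell surface that is induced by hypoxia, had 141 with In-Cl and 261 with E2, against 164 with DPN, 212 in hypoxia and 1.92 in the control (-0.89, -1.20 to -0.58). All 4 hypoxic libraries were far above the control, with In-Cl the lowest of them and E2 the highest. Postn, periostin, a matrix protein of injured vessels, had 41103 with In-Cl and 56657 with E2, against 46987 with DPN, 54993 in hypoxia and 45229 in the control (-0.46). E2 and hypoxia were again the higher pair.

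Signalling genes on this side were Rgs2, which shuts off Gq signals of vasoconstrictors, with 138 adjusted reads with In-Cl and 228 with E2, against 226, 186 and 161 with DPN, in hypoxia and in the control (-0.72, -1.04 to -0.41), and Kcnn4, the intermediate calcium-activated potassium channel of dividing smooth muscle, with 128 with In-Cl and 213 with E2, against 141, 201 and 346 with DPN, in hypoxia and in the control (-0.73). For Rgs2 and Kcnn4 In-Cl was the lowest of the 5. Gpm6b, a membrane glycoprotein (-0.89), Prkd1, protein kinase D (-0.77), Lgals9, galectin-9 (-0.75), Cenpq of the kinetochore (-0.75), Rab3b, a secretory GTPase (-0.71), Prr5 of the mTORC2 complex (-0.69), Bves, a membrane protein of muscle (-0.69), Ccdc125 (-0.68) and Tmsbl1, a thymosin-like gene (-0.67), had 377 adjusted reads or fewer with E2. With quantile normalization Prkd1 stood at -1.61 and Rab3b at -1.77. Abundant genes that were lower included Serpinf1, an inhibitor of vessel growth (-0.46), Fxyd5, a regulator of the sodium pump (-0.40), Itga8, an integrin of smooth muscle (-0.39), and the calcium-binding S100a4 (-0.39).

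Genes for basic cell machinery were lower with In-Cl by small amounts in most members. Over all genes 50.9% lay below 0, the counting interval was below 0 in 20.9%, and In-Cl was the lowest of the 5 libraries in 26.2%. All 82 members of the cytosolic ribosomal list lay below 0, with a median of -0.16, the interval below 0 in 81, and In-Cl the lowest of the 5 libraries in 58. Rpl37a had 11836 adjusted reads with In-Cl and 14411 with E2 (-0.28), Rps13 was next (-0.26), and Rps16 (-0.06) and Rpl21 (-0.01) were nearest 0. Many ribosomal protein genes have near-identical pseudogenes, which makes single values uncertain. These genes are abundant, and in the highest sixth of genes by level the median of all genes was -0.05. With the median of genes of like level taken off, the list's median was -0.10, with 81 members below 0 and 1 above. With quantile normalization 72 lay below 0 and 8 above.

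Nuclear genes of the respiratory chain and ATP synthase had a median of -0.16, with 64 of 69 below 0 and 5 above. The interval was below 0 in 53, and In-Cl was the lowest of the 5 in 61 of 69. For each list in this paragraph the shares over all genes are 50.9% below 0, 20.9% with the interval below 0, and 26.2% with In-Cl lowest. Ndufb6, a complex I subunit, had 588 adjusted reads with In-Cl and 790.3 with E2, against 689, 786 and 1044 with DPN, in hypoxia and in the control (-0.43, -0.58 to -0.27). Ndufb9 of the same complex differed by -0.35, and Ndufs1 (0.09) and Sdha, the flavoprotein of complex II (0.10), were the highest. The median of the mitochondrial ribosomal list was -0.12, with 55 of 69 below 0 (Mrps24 -0.45, Mrpl44 -0.38; Mrps7 0.15, Mrps18a 0.16) and the interval below 0 in 20. Proteasome subunits had a median of -0.16, with 30 of 32 below 0 and the interval below 0 in 18. Psmb10, a subunit of the immunoproteasome, differed by -0.55 and Psma3 of the core by -0.28, while Psmd2 and Psmc6 of the cap lay at 0.04. In-Cl was the lowest of the 5 in 28 of these 32.

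Genes on the list of chromatin and large regulators lay on the other side, and whether gene length plays a part was not tested. Of 30 on the list 19 were members, and 17 lay above 0, with a median of 0.18. The interval was above 0 in 15, and In-Cl was the highest of the 5 in 16. Over all genes 48.8% lay above 0, the interval was above 0 in 18.7% and below 0 in 20.9%, and In-Cl was the highest in 23.1%. Phc3, a Polycomb protein, had 509 adjusted reads with In-Cl and 341 with E2, against 306, 255 and 221 with DPN, in hypoxia and in the control (0.58, 0.38 to 0.79). Baz2b, a bromodomain protein, differed by 0.45. The exceptions were Phc1, another Polycomb protein, with 522 with In-Cl and 685 with E2 (-0.39, -0.56 to -0.22), and Ezh2, the Polycomb methyltransferase (-0.01). The vesicle traffic list had 18 of 28 members above 0 and a median of 0.09 (Trip11 0.41, Chm 0.38; Rab11fip2 -0.14, Tmed2 -0.15) and the interval above 0 in 13 and below 0 in 4.

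**Figure D4:**
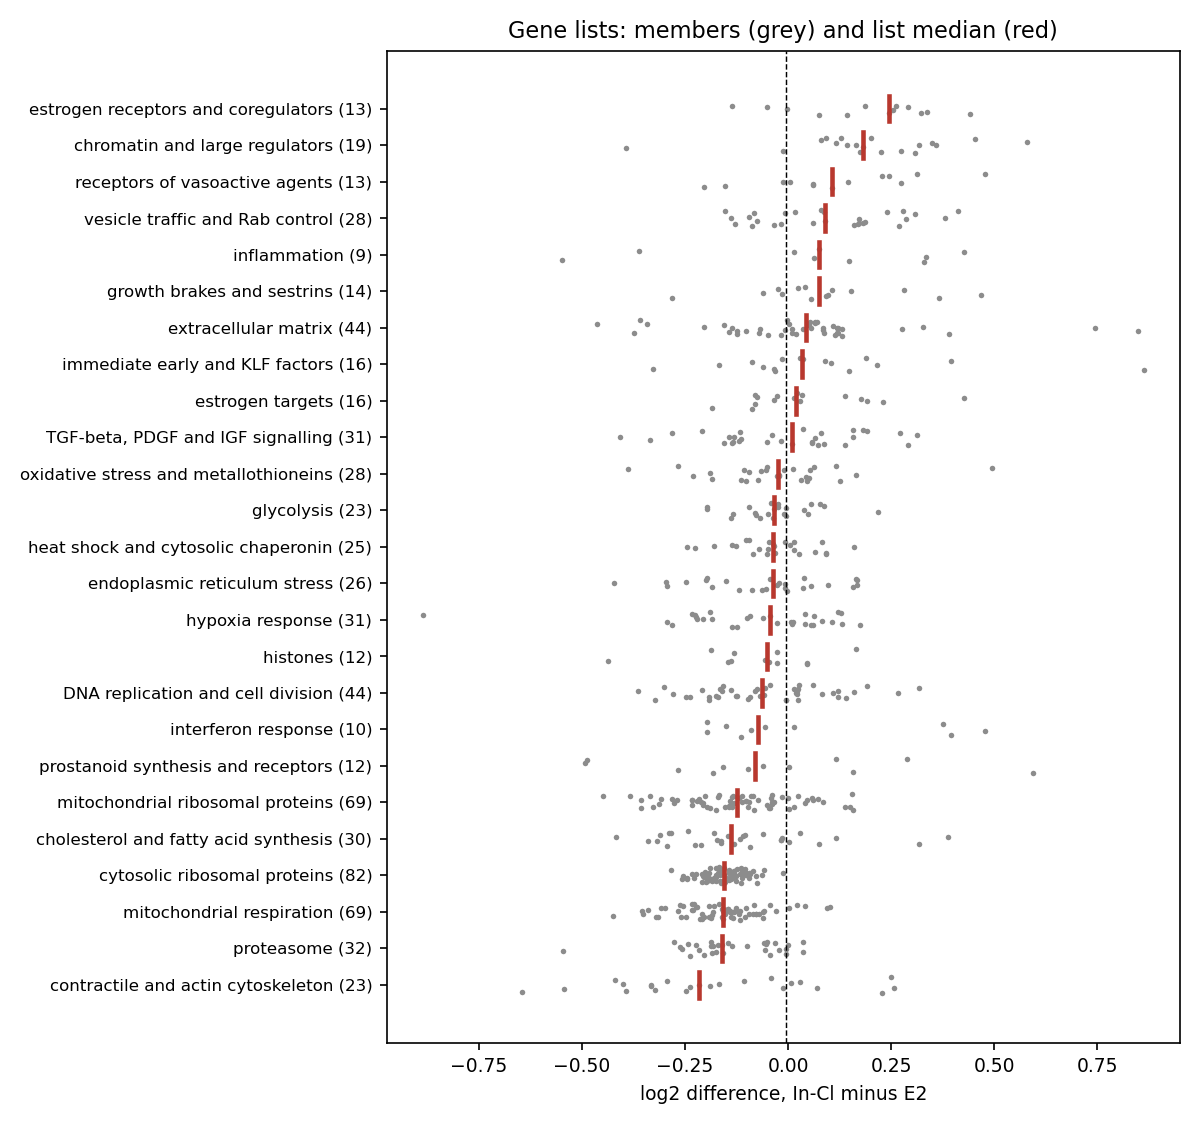
Gene lists by their members. The horizontal axis is the log2 difference, In-Cl minus E2; each dot is 1 member and the marked value is the median of the list, from -0.22 for the contractile genes to 0.25 for the receptors and coregulators, beside -0.005 over all 8810 genes.

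Genes of the sterol pathway were mostly lower with In-Cl, while Acaca and Fasn of fatty acid synthesis were higher. Of 30 members 24 lay below 0 and 6 above, with a median of -0.14, the interval below 0 in 15 and above 0 in 3. Over all genes 50.9% lay below 0, and the interval was below 0 in 20.9% and above 0 in 18.7%. In-Cl was the lowest of the 5 libraries in 11 (26.2% over all genes) and E2 the highest in 11 (12.4%). The median distance from the median of the DPN, hypoxia and control libraries was -0.07 for In-Cl and 0.07 for E2, so both libraries took part. Fdps, farnesyl diphosphate synthase, had 5209 adjusted reads with In-Cl and 6498 with E2, against 6169 with DPN, 6616 in hypoxia and 8034 in the control (-0.32, -0.37 to -0.27). In-Cl was the lowest of the 5 for Fdps. Tm7sf2, a sterol reductase, differed by -0.42 (-0.80 to -0.03). Insig1, which holds the sterol sensor in the endoplasmic reticulum, differed by -0.29. Acaca and Fasn, which make malonyl-CoA and palmitate, were the highest members. Fasn had 3768 with In-Cl and 3022 with E2, against 2940 with DPN, 3133 in hypoxia and 4181 in the control (0.32, 0.25 to 0.39), and Acaca differed by 0.39.

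Genes of the response to low oxygen and of sugar breakdown were close in the 2 libraries. Of 31 members of the hypoxia list 14 lay above 0 and 17 below, with a median of -0.04, and Car12 was the only one at least 1.5-fold apart. Vegfa, the vessel growth factor, had 13748 adjusted reads with In-Cl and 12572 with E2, against 4347 in the control (0.13), and Kdm3a, a histone demethylase, was the highest (0.17). Ero1a, an oxidase of the endoplasmic reticulum, was the next lowest after Car12 (-0.29). Of 23 glycolysis members 17 lay below 0 (50.9% over all genes), with a median of -0.035 (0.017 with the median of genes of like level taken off). Slc2a1, the glucose transporter GLUT1, had 5641 with In-Cl and 6462 with E2, against 677 in the control (-0.20), Tpi1 differed by -0.20, Hk2, hexokinase 2, by 0.22 and Pfkm by 0.09.

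Of 44 matrix genes 27 lay above 0, with a median of 0.04 and the interval above 0 in 23 and below 0 in 9. Over all genes 48.8% lay above 0, and the interval was above 0 in 18.7% and below 0 in 20.9%. Matrix genes are abundant, with a median level of 9699 adjusted reads, so these interval counts are not like for like. With the median of genes of like level taken off, the list's median was 0.102, with 31 above 0 and 13 below. Besides Fmod, Fras1 and Postn, the elastic fibre protein Mfap5 differed by -0.37, the protease inhibitor Timp1 by -0.36, and Fn1, fibronectin, had 357107 adjusted reads with In-Cl and 326109 with E2 (0.13). Early response and KLF factors had a median of 0.03 over 16 members, 9 above 0 and 7 below, and beside Egr1 the orphan receptor Nr4a2 (0.40) was highest, with Fosl2 (-0.33) and Klf4 (-0.17) lowest. The inflammation list had 9 members of 27, with a median of 0.08, 7 of them above 0. The members below 0 were Il6 and Tnf, 2 cytokines. Il6 had 130.2 adjusted reads with In-Cl and 191 with E2, against 196, 170.4 and 124 with DPN, in hypoxia and in the control (-0.55, -0.89 to -0.22). Tnf had 560.4 with In-Cl and 721 with E2, against 784, 682 and 458 with DPN, in hypoxia and in the control (-0.36, -0.53 to -0.20). For Il6 and Tnf In-Cl was the second lowest of the 5, above the control. Csf1, the macrophage growth factor, and Nfkbiz, a nuclear partner of NF-kB, differed by 0.33 each, after Cxcl12.

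Genes of DNA replication and division had a median of -0.06, with 27 of 44 below 0 and the interval below 0 in 14 and above 0 in 5. Over all genes 50.9% lay below 0 and 48.8% above, with the interval below 0 in 20.9% and above 0 in 18.7%. Ccne1, cyclin E1, had 305 adjusted reads with In-Cl and 392 with E2, against 358, 312 and 629 with DPN, in hypoxia and in the control (-0.36). Mki67, the proliferation marker Ki-67, had 3465 with In-Cl and 2781 with E2, against 2754, 3105 and 2808 with DPN, in hypoxia and in the control (0.32, 0.24 to 0.39), and Cenpf of the kinetochore differed by 0.27. So single division markers lay on both sides of 0. Growth factor genes were centred on 0 (31 members, median 0.01), with Igf2r (0.31) and Egfr (0.29) highest and Pdgfb (-0.41) and Tgfb3 (-0.34) lowest. Receptors and channels for vasoactive agents had a median of 0.11 over 13 members, 10 above 0, led by Gucy1b3, the nitric oxide receptor subunit (0.48), and Htr2b (0.31), with Trpc6 (-0.20) and Cacna2d1 (-0.15) lowest.

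The remaining lists had medians between -0.07 and 0.07. Interferon genes (10 members, -0.07) ran from Irf9 and Tap1 at -0.20 to Irf1 at 0.40 and Stat2 at 0.48. Brakes on growth (14 members, 0.07) ran from Bhlhe40 at -0.28 and Ddit4 at -0.06 to Foxo3 at 0.36 and Sesn3 at 0.47. Genes of endoplasmic reticulum stress (26 members, -0.04) ran from Trib3 at -0.42 and Creld2 at -0.30 to Sel1l and Hyou1 at 0.17. Heat shock genes (25 members, -0.04, and 0.02 with the median of genes of like level taken off) ran from Hspb8 at -0.24 and Hspb6 at -0.23 to Hspa1b at 0.09 and Hsph1 at 0.16. Oxidative stress genes (28 members, -0.03, and 0.01 so centred) ran from Akr1b8 at -0.39 and Gpx4 at -0.27 to Mt2A at 0.16 and Mt1a at 0.50, and histones (12 members, -0.05) from Hist2h2ab at -0.44 and Hist1h2bh at -0.19 to H2afy2 at 0.05 and H2afj at 0.16.

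The other 3 libraries place the 2 compared, in genes chosen for a difference between them. Of the 63 genes at least 1.5-fold higher, In-Cl was the highest of the 5 in 54 and E2 the lowest in 30, with both in 21. In-Cl was farther than E2 from the median of the DPN, hypoxia and control libraries in 35 of the 63. The median distance from the median of the DPN, hypoxia and control libraries was 0.42 for In-Cl and -0.31 for E2. Of the 36 lower genes, In-Cl was the lowest in 29 and E2 the highest in 16, with both in 11. In-Cl was the farther in 27 of the 36, and the median distances were -0.52 for In-Cl and 0.15 for E2. Over all genes, which were not chosen by difference, In-Cl was the highest in 23.1% and the lowest in 26.2%, and E2 the highest in 12.4% and the lowest in 13.8%; as the choice itself favours such places, nothing is read from the counts against these shares. Adam11, an adhesion protein chosen after its values were seen, had 297 adjusted reads with In-Cl and 192 with E2, against 53.5 with DPN, 77.6 in hypoxia and 83.3 in the control (0.63). Like Cnnm1, Adam11 was farther from the other 3 libraries in both In-Cl and E2 than In-Cl was from E2.

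**Figure D5:**
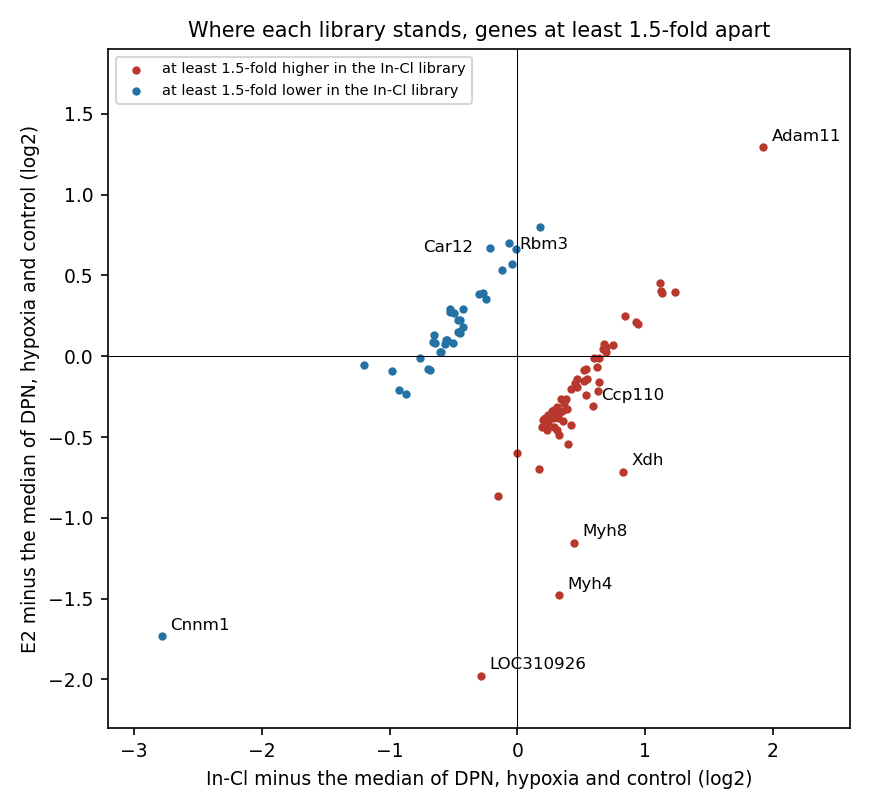
The 63 genes at least 1.5-fold higher and the 36 at least 1.5-fold lower with In-Cl than with E2. The horizontal axis is the log2 distance of the In-Cl library from the median of the DPN, hypoxia and control libraries and the vertical axis the same for E2; Myh4 and LOC310926 lie low on the E2 axis, and Adam11 and Cnnm1 lie far from 0 on both.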

How the data were processed

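Per the labels' protocols, Trizol was used to extract total RNA and the SMARTer Stranded kit to make libraries. The authors deposited 1 table per library of log2 values. Per the submitters' processing notes, the tools include TopHat and edgeR and the build is rn6. How reads were counted, with which annotation, strand setting and versions, is not given in the sources used here, so genes that overlap on opposite strands may share reads. Each log2 value was turned into a linear value by subtracting the pseudocount of 1 after exponentiation. Steps between low values gave approximate reads, and 98.4% to 100% of low values in the In-Cl, E2, DPN and hypoxia libraries and 79.0% in the control lay within 0.2 read of a whole number. No count model and no test was run, with 1 library per condition. Intervals are exact Clopper-Pearson intervals (95%) of a gene's share of the approximate reads of both libraries; they treat each read as a molecule, although there are no molecular identifiers, and cover counting error only. Of 8868 rows that passed the level limit, 1 per symbol was kept, the one with the highest mean.

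Genes named are Ptgs2, Ptgs1, Esr1, Esr2, Gper1 and Pgr (Greb1 was not analysed here), the 14 largest differences each way with an interval that leaves out 0, the 10 largest each way with a mean of at least 1000, and members of 33 gene lists, with uncharacterised loci left out of the rankings. Some of these genes are not reported here. The members and lists were chosen with earlier results of these data known. A planned look at coding length was not made, because gene lengths of the files' build were not used here, and level alone was examined. Alternatives were median centring, quantile normalization, a pseudocount of 10, raising values under 3 reads, summing the rows of a symbol, other level limits and other folds. Python 3.11.15, numpy 2.4.6, pandas 2.3.3, scipy 1.17.1 and matplotlib 3.10.9 were used, and the interval and step methods were tested on simulated data. The simulated reads held counting error only, so this was a check of the code and says nothing of the spread between cultures.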

Additional observations from a re-analysis of the deposited data

How the results depend on the processing

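Counts of genes at least 1.5-fold higher and lower were 63 and 36, and they depended most on the level limit and the fold: 357 and 217 with a mean of at least 10, 1101 and 862 with no limit, 3 and 3 with a mean of at least 1000, 4 and 2 at 2-fold, and 530 and 356 when a difference of 0.32 on the log2 scale was enough. Quantile normalization gave 71 and 61. The remaining alternatives gave 52 to 65 and 27 to 48, among them median centring with 65 and 35, a pseudocount of 10 with 53 and 27, and level decile centring, chosen after seeing the data, with 52 and 48, of which 49 and 36 were among the 63 and 36. Of 200 values of list medians (25 lists, 8 alternatives) 193 stayed inside the interval of the list's own median over its genes, and 6 had the other sign. With level decile centring these were glycolysis (0.017, against -0.035), heat shock (0.022, against -0.036) and oxidative stress (0.01, against -0.03). With a mean of at least 1000 they were the early factors (-0.047, against 0.033) and cell division (0.005, against -0.06), and with a mean of at least 10 growth factor genes (-0.0035, against 0.009). The ribosomal list stood at -0.0938 with quantile normalization. Of 276 values of named genes (46 genes, 6 alternatives) 260 stayed within the counting interval, 16 left it and 0 changed sign; Acta2 was -0.28 and -0.34 with quantile normalization and level decile centring. The cause was not tested. No paired analysis was possible because each condition is 1 library. For the same reason no library could be left out. Depth limits genes near the level limit most: Psma3, with 88.8 adjusted reads with In-Cl and 107.7 with E2, had a counting interval of -0.71 to 0.15.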

Other observations

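Some genes under the level limit were read in one of the 2 libraries and hardly or not at all in the other; they were chosen after their values were seen. Of all 3662 genes under the level limit with a read in either library, uncharacterised loci left out, the counting interval was above 0 in 246 and below 0 in 138. In a run of neighbouring phosphate and urate transporters Slc17a1 had 70 reads with In-Cl and 0 with E2, Slc17a2 had 86 with In-Cl and 1 with E2, Slc17a3 had 91 with In-Cl and 1 with E2, and Slc17a4 had 22 with In-Cl and 0 with E2. These 4 had 0 reads with DPN, 0 or 1 in hypoxia, and 20, 24, 26 and 34 in the control. The organic anion transporters Slc22a6 and Slc22a8 were likewise read mainly in the In-Cl and control libraries: Slc22a6 had 20 reads with In-Cl and 0 with E2, against 21 in the control, and Slc22a8 had 22 with In-Cl and 0 with E2, against 23 in the control. Of the genes beside the Slc17 run, Hist1h1a had 10 reads with In-Cl and 1 with E2, and Hist1h2ba had 6 with In-Cl and 3 with E2, with an interval that spans 0. Farther off, Lrrc16a had 337 with In-Cl and 293 with E2. Slc3a2, near the Slc22 genes, had 4210 with In-Cl and 4217 with E2. The counting interval of the log2 difference of Slc17a1 lay above 4.07.

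Vom2r65, a vomeronasal receptor of a large family of similar genes, had 128 reads with In-Cl and 0 with E2, against 48 with DPN, 8 in hypoxia and 7 in the control, with the interval of the log2 difference above 4.96. Tpte2, a phosphatase gene, had 0 reads with In-Cl and 168 with E2, against 167 with DPN and 0 in hypoxia and in the control, with the interval below -5.63. Mup5, of the major urinary protein family, had 0 reads with In-Cl and 30 with E2, against 0 with DPN, 36 in hypoxia and 30 in the control. Atp6v1b1, a proton pump subunit, had 54 reads with In-Cl and 3 with E2, against 24 with DPN, 21 in hypoxia and 45 in the control. Mag, of myelin, had 20 with In-Cl and 0 with E2, against 0 with DPN, 0 in hypoxia and 2 in the control. Such on and off values in single libraries have no replicate check, and their source was not tested.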
